A study of Homo sapiens with 20 samples.

Results

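Box C/D small nucleolar RNAs (snoRNAs) are the rows described here: the 161 gene rows whose symbol starts with SNORD, among the 26485 rows measured in nuclear RNA of HCT116 cells. The 118 rows of the SNORD113, SNORD114, SNORD115 and SNORD116 repeat clusters were left out. HCT116 is a colorectal carcinoma line, labelled here as wild type. All cells were electroporated, either with water or with 10 µM of a bivalent stapled peptide (Peg6) made to block the contact between p53 and the Mediator coactivator complex. For the next 3 hours the medium held 0.1% DMSO alone or with Nutlin-3a at 10 µM, a compound that releases p53 from its ubiquitin ligase MDM2. Wells given peptide also had 200 nM of it in the medium. The 4 conditions were therefore DMSO with water, DMSO with peptide, Nutlin-3a with water and Nutlin-3a with peptide. Experiment 1 had 2 replicates of each (8 libraries) and experiment 2 had 3 (12 libraries). No label says that the replicates were separate cultures, so p-values measure the spread between these libraries, which may be technical. Libraries were made from ribosomal RNA-depleted nuclear RNA with a directional kit.

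Box C/D snoRNAs are short nucleolar RNAs that carry the box C and box D motifs near their ends and assemble with the proteins FBL, NOP56, NOP58 and SNU13. Most guide FBL, the methyltransferase, to a nucleotide of ribosomal or spliceosomal RNA, where it methylates the ribose. A few, among them U3 (the SNORD3 rows), U8 (SNORD118), U13 (SNORD13), U14 (the SNORD14 rows) and U22 (SNORD22), act in processing of the ribosomal RNA precursor instead. In human cells most are cut from introns of host genes, many of which encode ribosomal proteins or are noncoding hosts such as GAS5, while U3, U8 and U13 have promoters of their own.

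The letters of some members are shown because the results below turn on them. SNORD24 is the member called for a treatment without the replicate block, and SNORD36A lies in another intron of the same host. The pairs SNORD18A with SNORD18B and SNORD4A with SNORD4B each share a host, and in each pair 1 member took separated levels among libraries while the other did not. SNORD17 is the longest row. Capitals mark the box C core TGATG in the first 15 bases and the box D motif CTGA in the last 15 bases of the GENCODE v29 transcript, written 5′ to 3′ with T for U.
SNORD24: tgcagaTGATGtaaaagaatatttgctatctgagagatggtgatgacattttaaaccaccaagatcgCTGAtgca
SNORD36A: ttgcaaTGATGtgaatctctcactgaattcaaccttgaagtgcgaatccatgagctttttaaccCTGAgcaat
SNORD18A: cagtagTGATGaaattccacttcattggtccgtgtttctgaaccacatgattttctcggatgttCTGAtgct
SNORD18B: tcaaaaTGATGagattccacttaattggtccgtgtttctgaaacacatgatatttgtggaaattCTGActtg
SNORD4A: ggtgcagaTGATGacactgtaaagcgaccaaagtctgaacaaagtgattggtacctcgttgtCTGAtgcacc
SNORD4B: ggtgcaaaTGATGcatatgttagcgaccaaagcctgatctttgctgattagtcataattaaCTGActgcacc
SNORD17: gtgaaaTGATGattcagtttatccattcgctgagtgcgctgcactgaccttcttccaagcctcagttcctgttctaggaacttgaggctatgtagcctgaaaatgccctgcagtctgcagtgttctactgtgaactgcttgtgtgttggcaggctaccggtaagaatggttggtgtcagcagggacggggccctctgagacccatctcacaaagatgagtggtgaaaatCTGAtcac

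A GENCODE transcript matched 136 of the members. TGATG was found in the first 15 bases of 108 of them (79.4%), CTGA in the last 15 bases of 125 (91.9%), and both in 106 (77.9%), on the transcript strand. Among all 206694 GENCODE transcripts those shares were 1.33%, 7.19% and 0.206%. SNORD18A and SNORD18B, of 72 bases each, share 60 bases in the same order (83.3%), and SNORD4A and SNORD4B, also of 72 bases, share 55 (76.4%).

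The rows spanned 43 to 237 bases, with a median of 77. On hg38, 137 members lay inside a longer row on the same strand, from 70 host genes, and 24 lay in none. GAS5 held 10 members and SNHG1 held 8, while RPL7A, RPL4 and RPL23A held 4 each. Of all members, 145 overlapped no exon of a longer GENCODE transcript and 16 did. SNORD24 (chr9:133349396-133349470, plus strand) was intronic, 81 bases from the nearest RPL7A exon. SNORD18B (chr15:66502022-66502091, minus strand) and SNORD18A (chr15:66503245-66503314, minus strand) lay inside RPL4. SNORD4A (chr17:28722582-28722653, plus strand) and SNORD4B (chr17:28723681-28723754, plus strand) lay inside RPL23A. SNORD17 (chr20:17962710-17962946, minus strand) lay inside SNX5, 4742 bases from the nearest exon. In 4 pairs of symbols (SNORD103A with SNORD103B, SNORD109A with SNORD109B, SNORD3B-1 with SNORD3B-2, and SNORD62A with SNORD62B) both symbols stood for the same row and are not independent.

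The depth, summed over all gene rows, ran from 36717795 to 63896604 reads among the libraries of experiment 1 and from 18787172 to 47407746 among those of experiment 2. Levels are RPM, reads scaled so that all gene rows of a library sum to 1000000, or RPM per kilobase of the row where genes are compared. The p53 target CDKN1A had 33.9 and 34.3 RPM in DMSO with water, 108 and 123 RPM in Nutlin-3a with water and 35.3 and 38.8 RPM in Nutlin-3a with peptide in experiment 1. In experiment 2 its means were 53.1 ± 7.60, 91.6 ± 27.9 and 83.5 ± 25.7 RPM (SD, n = 3), and the last 2 groups overlapped. Epithelial genes were abundant (mean over 20 libraries of 1383 RPM for KRT8 and 255.9 RPM for EPCAM), with VIL1 near 0 at 0.191 RPM. The leukocyte gene PTPRC (0.0272 RPM), the fibroblast genes COL1A2 (0.00105 RPM) and COL3A1 (0.0269 RPM) and the endothelial gene PECAM1 (0.474 RPM) were at or near 0. Replicate 2 of Nutlin-3a with water in experiment 1 stood apart: it correlated with replicate 1 at 0.955 across the tested rows, against 0.992 to 0.997 for the replicates of the other 3 conditions. Of all tested rows, 57.7% had their lowest RPM of experiment 1 in that library, as did 84 of 150 tested members.

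SNORD24, a methylation guide from an intron of the ribosomal protein gene RPL7A, was nearly lost from the peptide-treated libraries without Nutlin-3a in experiment 1. It had 28.2 and 28.7 RPM in DMSO with water, 1.75 and 1.33 RPM in DMSO with peptide, 22.8 and 29.5 RPM in Nutlin-3a with water and 39.4 and 38.1 RPM in Nutlin-3a with peptide. The 2 low libraries rested on 81 and 63 reads and the other 6 on 975 to 2517, so the groups did not overlap. The log2 change with peptide was -3.84 ± 0.32 (SE), with an adjusted p of 6.8e-05 by limma on 8 group means over 15958 rows. It was the only row called in that comparison, where 0.00627% of rows were called as lower and 0% as higher. With the replicate number as a block the adjusted p was 2.34e-08. The rule that chose the members did not use these values, but SNORD24 had been singled out from earlier results of the same libraries, so the test is not independent of that choice.

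In experiment 2 the same treatment left SNORD24 in the range of the other libraries. DMSO with water had 121, 83.2 and 117 RPM and DMSO with peptide had 102, 82.1 and 146 RPM. The log2 change was 0.04 ± 0.26 (SE), with all 3 peptide libraries inside or above the range of the other groups' libraries of 62.5 to 123 RPM. The difference between the experiments was 3.88 ± 0.42 (SE) on the log2 scale, adjusted p 0.00185 by limma's interaction term. It was again the only row called as higher (0.00627% of rows). With a pseudocount of 5 in place of 0.5 that difference was 2.47 and was not called (limma, adjusted p 0.167). Over both experiments together the log2 change of SNORD24 was -1.51 ± 0.63 (SE) and limma did not call it (adjusted p 1).

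The neighbours of SNORD24 did not share the drop. SNORD36A, SNORD36B and SNORD36C, guides from other introns of RPL7A, had log2 changes of 0.04 ± 0.36, 0.11 ± 0.41 and 0.20 ± 0.34 (SE) with peptide in DMSO in experiment 1. SNORD36A had 33.2 and 37.1 RPM in DMSO with water against 33.1 and 37.8 RPM in DMSO with peptide. SNORD36C had 41.6 and 41.8 RPM against 45.4 and 48.9 RPM. The host row RPL7A had 362 and 352 RPM in DMSO with water and 366 and 384 RPM in DMSO with peptide. The SNORD24 row was 3.32 times as dense in reads per base as the RPL7A row over experiment 1 (median of 8 libraries), with a lowest value of 0.145 and a highest of 4.10. The plot of SNORD24 and its neighbours shows all libraries.

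**Figure D1:**
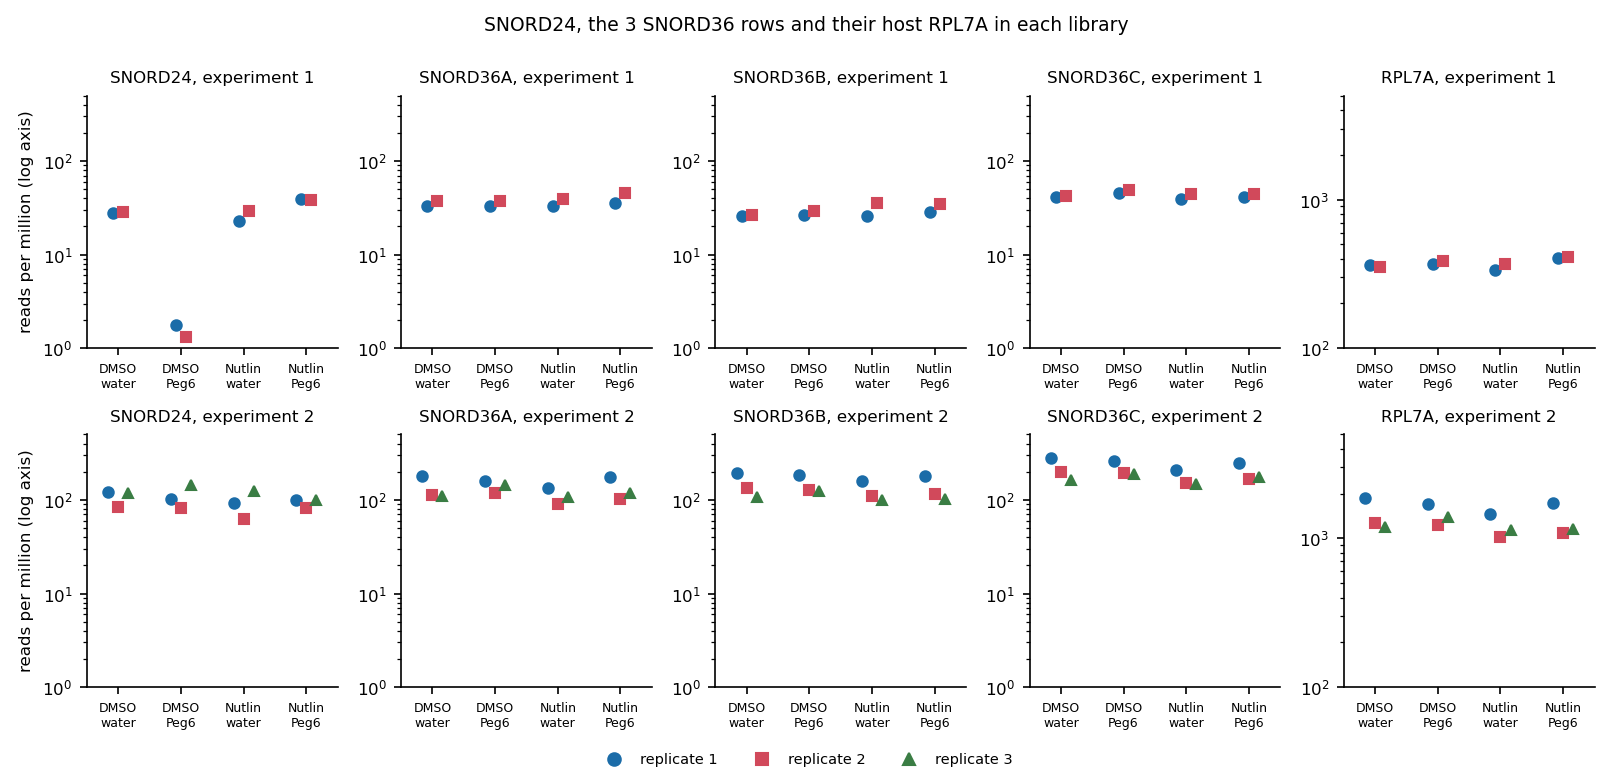
RPM (log axes) of SNORD24, SNORD36A, SNORD36B, SNORD36C and their host RPL7A in each library, with 1 point per library, the conditions on the x axis and the replicate number as shape and colour; the upper row is experiment 1 and the lower row is experiment 2. SNORD24 stood at 1.75 and 1.33 RPM in the 2 libraries of DMSO with Peg6 in experiment 1 and at 22.8 RPM or more in the other 6, while the other rows had no such gap.

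Several other members also ranged widely among libraries, some of them at separated levels, in most cases with high and low libraries within a condition. The rule here was a highest library at least 10 times the lowest among members with a mean of at least 2 RPM in the experiment, and it was chosen after the values were seen. It took 6 of 131 members in experiment 1 (4.58%, against 0.229% of all rows) and 6 of 133 in experiment 2 (4.51%, against 3.11% of all rows). The share in experiment 2 was near that of all rows. In experiment 1 these were SNORD45C, SNORD5, SNORD18B, SNORD4A, SNORD1A and SNORD24. In experiment 2 they were SNORD75, SNORD18B, SNORD91B, SNORD4A, SNORD11 and SNORD12C. The rule asked for no gap between levels: the widest step between neighbouring libraries was only 3.00-fold for SNORD1A and 3.24-fold for SNORD12C.

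SNORD18B, a guide from RPL4, had the widest gap in experiment 1. It had 17.8 and 0.244 RPM in DMSO with water, 15.8 and 0.421 RPM in DMSO with peptide, 0.421 and 16.6 RPM in Nutlin-3a with water and 23.5 and 34.0 RPM in Nutlin-3a with peptide. In 3 of the 4 conditions 1 replicate was low and 1 was high. SNORD18A, its relative in the same host, ranged only from 28.3 to 50.6 RPM across these libraries, and the host RPL4 varied 1.34-fold. In experiment 2 SNORD18B was at 0.551 to 3.59 RPM in 4 libraries and at 42.5 to 89.1 RPM in the other 8. The low libraries were replicates 1 and 3 of DMSO with water, replicate 3 of DMSO with peptide and replicate 2 of Nutlin-3a with peptide.

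SNORD4A, a guide from RPL23A, had 1.496 to 2.08 RPM in 6 libraries of experiment 1 and 41.7 and 36.9 RPM in replicate 2 of Nutlin-3a with water and of Nutlin-3a with peptide. In experiment 2 it had 1.65 to 3.96 RPM in 7 libraries and 115.5 to 264 RPM in 5, which came from all 4 conditions. SNORD4B in the same host stayed between 18.9 and 30.3 RPM in experiment 1 and between 56.5 and 166 RPM in experiment 2. The RPL23A row varied 1.26-fold in experiment 1 and 2.74-fold in experiment 2.

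SNORD91B, a guide from TSR1, was high in the same 2 libraries in which SNORD24 was low. It had 0.436 and 0.333 RPM in DMSO with water, 4.05 and 4.50 RPM in DMSO with peptide, 0.584 and 0.164 RPM in Nutlin-3a with water and 0.579 and 0.619 RPM in Nutlin-3a with peptide of experiment 1. The log2 change with peptide in DMSO was 2.53 ± 1.07 (SE) and limma did not call it (adjusted p 1). In experiment 2 it was at 0.155 to 0.266 RPM in replicate 2 of every condition except DMSO with water, which had 8.92 RPM, and at 3.56 to 8.92 RPM elsewhere. SNORD91A, its neighbour in TSR1, had 2.56 and 2.26 RPM in DMSO with water and 2.47 and 2.38 RPM in DMSO with peptide of experiment 1.

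SNORD75 and SNORD12C, guides from the noncoding hosts GAS5 and ZFAS1, and SNORD11, from NOP58, followed replicate numbers in part. In experiment 2 SNORD75 was at 27.1, 38.3 and 34.9 RPM in replicate 1 of the 3 conditions other than DMSO with water, and at 0.551 to 6.15 RPM in the other 9 libraries. SNORD12C was at 4.63 to 7.61 RPM in the 4 libraries numbered 2 and at 24.6 to 50.3 RPM in the other 8. Its host ZFAS1 was lowest in the same libraries, at 258 to 291 RPM against 429 to 1010 RPM elsewhere. The GAS5 row varied 3.996-fold in experiment 2 and the NOP58 row 1.97-fold. SNORD11 was at 0.380 and 0.615 RPM in replicate 3 of DMSO with peptide and of Nutlin-3a with peptide, and at 3.79 to 9.26 RPM in the other 10. SNORD45C and SNORD5 had their single low library in experiment 1, 0.306 and 0.347 RPM, in the library that stood apart. RABGGTB, the host of SNORD45C, was also lowest there, at 41.6 RPM against 117 to 148 RPM in the other libraries. The part of such library-to-library switching in the SNORD24 result was not tested.

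**Figure D2:**
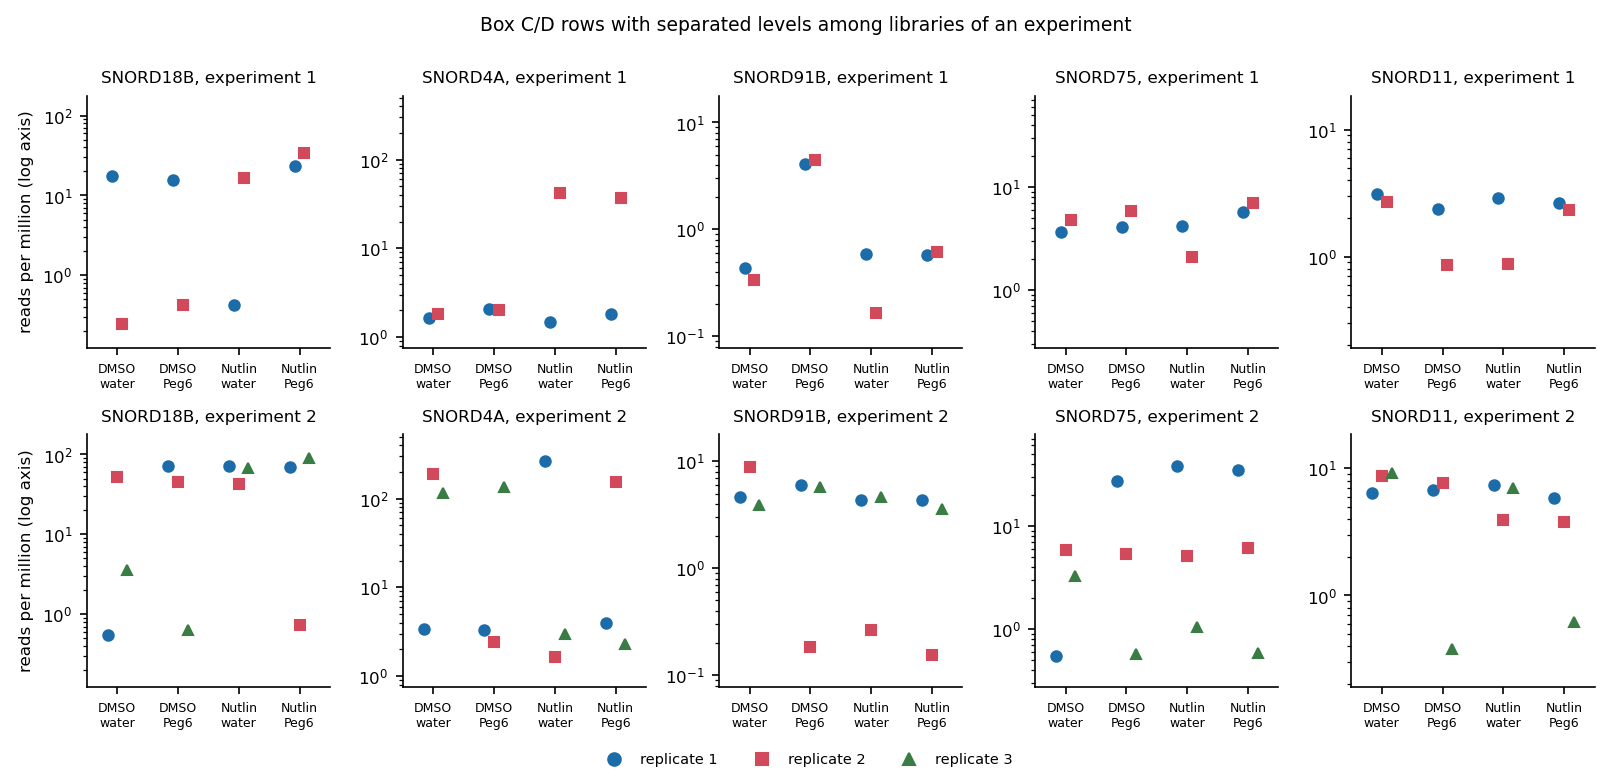
RPM (log axes) of SNORD18B, SNORD4A, SNORD91B, SNORD75 and SNORD11 in each library, with 1 point per library, the conditions on the x axis and the replicate number as shape and colour; the upper row is experiment 1 and the lower row is experiment 2. High and low libraries occur within the same condition, as in SNORD18B in DMSO with water of experiment 1 (17.8 and 0.244 RPM), and SNORD91B is high in both libraries of DMSO with Peg6 of experiment 1.

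In experiment 2 the libraries grouped by replicate number, for the members about as for all rows. For 122 of 150 tested members (81.3%, against 76.6% of all tested rows) the 4 libraries of 1 replicate number lay all above or all below the other 8. The 3 libraries of a condition lay apart from the other 9 for 0 of 150 members, against 0.439% of all rows. SNORD44, a guide from GAS5, had 163, 158, 135 and 170 RPM in the libraries numbered 1, 21.7, 21.6, 22.8 and 22.6 RPM in those numbered 2, and 72.2, 90.3, 74.1 and 72.9 RPM in those numbered 3. Its host GAS5 had the same order, with 1191, 309.5 and 721.5 RPM in replicates 1, 2 and 3 of DMSO with water.

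Levels of the members differed far more between the experiments than between the treatments. In the experiment term of limma over the 25144 rows with any read, 92 of 160 members were higher in experiment 2 and 26 were higher in experiment 1, where 24.5% and 30.1% of all rows were called. Without TMM scaling these counts were 102 and 13, with 33.4% and 21.3% of all rows called. What differed between the experiments is not stated in the labels, and experiment and any difference in handling cannot be told apart.

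U3, the abundant processing RNA that base-pairs with the ribosomal RNA precursor, made up most of the box C/D reads in experiment 1 and almost none in experiment 2. SNORD3A had 2873 and 2675 RPM in DMSO with water, 1554 and 2611 RPM in DMSO with peptide, 3527 and 1199 RPM in Nutlin-3a with water and 2615 and 6582 RPM in Nutlin-3a with peptide of experiment 1. In experiment 2 its 12 libraries ran from 1.55 to 7.24 RPM, so the experiments did not overlap. Its log2 difference was -9.71 ± 0.30 (SE), with an adjusted p of 1.07e-14 by limma, and its mean was 745-fold higher in experiment 1. The 5 U3 symbols, of which SNORD3B-1 and SNORD3B-2 share a row, together were 71.0% to 91.0% of member reads in experiment 1 and 0.0907% to 0.362% in experiment 2. They are near-identical copies, so how reads were divided among them is uncertain.

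The other members moved the opposite way as a sum. Without U3 the members had 1791 to 2250 RPM per library in experiment 1 and 5148 to 12020 RPM in experiment 2. Of the members, 129 had the higher mean in experiment 2 and 31 in experiment 1. In 86 members every library of experiment 2 lay above every library of experiment 1 (20.7% of all rows did), and in 10 the reverse held (7.43% of all rows).

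The rRNA processing RNAs split into 2 sets. U8 (SNORD118), which acts on the precursor of the large-subunit RNAs, had 7.04 to 25.6 RPM in experiment 1 and 0.295 to 1.49 RPM in experiment 2, a log2 difference of -3.61 ± 0.21 (SE; limma, adjusted p 1.02e-10). U13 (SNORD13) had 1.25 to 6.78 RPM and 0 to 0.106 RPM, a log2 difference of -2.97 ± 0.18 (limma, adjusted p 1.23e-10). The intron-encoded U14 and U22 rows had higher means in experiment 2. SNORD14A from RPS13 averaged 26.7 RPM and then 127.4 RPM. SNORD14E from HSPA8 ranged from 21.3 to 42.4 RPM in experiment 1 and from 71.0 to 124.7 RPM in experiment 2, and SNORD22 from SNHG1 had means of 10.7 and 33.8 RPM. Of the 13 rows, 5 were called higher in experiment 2 (24.5% of all rows were) and 7 higher in experiment 1 (30.1% of all rows). SNORD14C was not called (31.2 and 58.4 RPM, limma, adjusted p 0.0533).

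Shorter and longer members differed in direction, but the longer ones include the U3, U8 and U13 rows. Of the 24 members that span over 100 bases, 6 were higher in experiment 2 and 10 were higher in experiment 1. Of the 136 fitted members of at most 100 bases, those counts were 86 and 16. Of all rows, 24.5% were called higher in experiment 2 and 30.1% higher in experiment 1. U3, U8 and U13 rows made up 7 of the 10 long members that were higher in experiment 1. SNORD17, at 237 bases, had 31.5 to 69.0 RPM in experiment 1 and 1.91 to 6.89 RPM in experiment 2, with means of 48.9 and 3.81 RPM (limma, adjusted p 2.56e-10). Long members from protein genes were not all lower: SNORD10 from EIF4A1, at 148 bases, had 37.0 to 74.4 RPM and 40.7 to 90.8 RPM, with a log2 difference of -0.00 ± 0.18. The part of length selection during library preparation was not tested, and the promoter-driven members U3, U8 and U13 are all among the rows over 100 bases.

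Members inside ribosomal protein genes were higher in experiment 2 in 31 of 36 cases and higher in experiment 1 in 1. Of all rows, 24.5% were called higher in experiment 2 and 30.1% higher in experiment 1, or 33.4% and 21.3% without TMM scaling. The median of the mean levels of these 36 members was 27.95 RPM in the first experiment against 131.3 RPM in the second. The median fold of experiment 2 over experiment 1 was 4.63 for the members and 4.64 for their host rows. Of 42 members in hosts listed as noncoding, 28 were higher in experiment 2 and 4 in experiment 1, with median folds of 3.05 for members and 3.01 for hosts. A noncoding accession put NOP56, which also codes for protein and holds 4 members, into that class. SNORD101 and SNORD100, guides from RPS12, were the 2 most abundant per base in experiment 2. SNORD101 ran from 22.8 to 49.2 RPM in experiment 1 and from 173 to 531 RPM in experiment 2. SNORD100 ran from 34.4 to 44.4 RPM in experiment 1 and from 214 to 556 RPM in experiment 2. SNORD81 from GAS5 had the largest log2 difference upward, 3.28 ± 0.43 (SE; limma, adjusted p 2.89e-06), with 2.78 to 8.78 RPM in experiment 1 and 35.8 to 245 RPM in experiment 2.

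Per kilobase of row, the 5 U3 rows led experiment 1 with 9755 to 13620 RPM per kilobase. SNORD35A (997.1), SNORD95 (732.3), SNORD34 (702.6), SNORD36C (647.3) and SNORD18A (592.6 RPM per kilobase) came next. In experiment 2 SNORD101 (4565) and SNORD100 (4522 RPM per kilobase) led, followed by SNORD34 (3502), SNORD42A (3128), SNORD38B (2999), SNORD36C (2968), SNORD73A (2963), SNORD35A (2883), SNORD33 (2882) and SNORD81 (2836). SNORD34, SNORD35A and SNORD36C were among the 10 highest in both experiments. The order within each list is of means, and neighbours in it were not tested against each other.

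**Figure D3:**
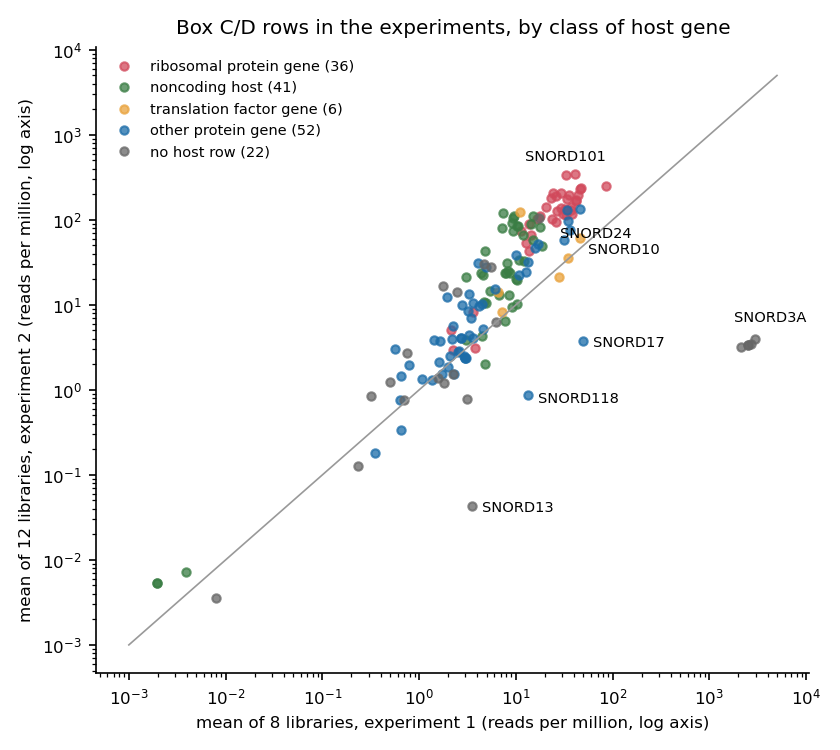
Mean RPM of 157 box C/D rows with reads in both experiments, experiment 1 on the x axis and experiment 2 on the y axis (log axes), coloured by the class of host gene, with the diagonal of equal levels. The U3 rows lie far to the right, with SNORD3A at 2955 RPM on the x axis and 3.96 RPM on the y axis, and 35 of the 36 rows in ribosomal protein genes lie above the diagonal.

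Most members stood above their host row in reads per base. This ratio compares the density of reads over the short row with that over the whole span of the host, introns included, and it is a description with no test. Its median over members with reads was 3.97 in experiment 1 (136 members) and 4.46 in experiment 2 (134 members). The box H/ACA rows (SNORA) had medians of 4.08 and 2.99, and the microRNA rows 5.01 and 5.62. Reads that reach past the ends of a short row raise its ratio: with 100 bases added to each span the medians for the members were 1.86 and 1.97. Taking the members' reads out of the host row gave 5.65 and 5.19.

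Members far from an exon had higher ratios. Among the 130 members with a host and a mean of at least 0.5 RPM in both experiments, the median ratio in experiment 1 was 3.63 for the 79 that lie 1 to 100 bases from an exon, 4.37 for the 20 that lie farther but within 200 bases and 8.04 for the 24 beyond 200 bases. In experiment 2 these were 3.97, 5.58 and 7.66, there without SNORD17, for which no host row was found in that experiment. SNX5 itself had reads in experiment 2 (mean 166.3 RPM). The highest ratio among members with at least 0.5 RPM in experiment 1 was that of SNORD17 in SNX5, at 24.6 (range over 8 libraries 20.6 to 37.1). SNORD118, which overlaps an exon of TMEM107, had 13.9 in experiment 1 and 1.77 in experiment 2. SNORD92 in WDR43 had 13.4 and SNORD63 in HSPA9 had 13.3. SNORD96B (14.9) also ranked among the 10 highest, but its mean level was 0.349 RPM. SNORD64 (50.3), SNORD108 (48.9) and SNORD107 (23.96) ranked there too, but their ratios rest on 1 library. Only replicate 1 of Nutlin-3a with peptide had reads on their host rows, 0.0157 RPM on PWAR5 and 0.0313 RPM on PWARSN. With so few reads these ratios do not measure a density.

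Relatives within the same host could lie on opposite sides of their host's density. In RPL23A, SNORD42A had a ratio of 11.5 (10.9 to 12.97 over 8 libraries) and SNORD42B had 0.67 (0.37 to 0.84) in experiment 1, and 12.4 and 0.25 in experiment 2. In RPS3, SNORD15B had 3.496 and SNORD15A had 0.33 in experiment 1, with ranges of 3.23 to 4.63 and 0.26 to 0.49. SNORD43 in RPL3 (0.38) was also under 1. SNORD4A, at a median of 0.57, reached 10.6 in its high libraries.

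**Figure D4:**
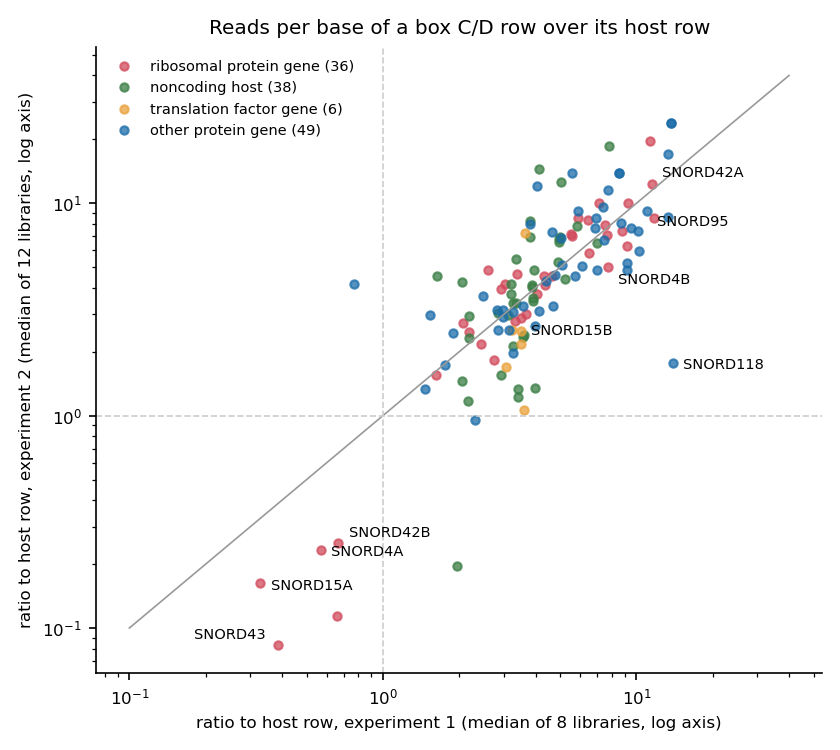
Ratio of reads per base of a box C/D row to its host row (median over the libraries of an experiment, log axes), experiment 1 on the x axis and experiment 2 on the y axis, for 129 members with a mean of at least 0.5 RPM in each, coloured by host class; dashed lines mark equal density and the diagonal marks equal ratios. In 121 members the ratio was over 1 in both experiments, SNORD15A, SNORD43, SNORD4A and SNORD42B were among those under 1 in both, and SNORD118 moved from 13.9 to 1.77.

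Nutlin-3a, the peptide under Nutlin-3a and the peptide without it were compared next over all 20 libraries, with the experiment as a term. The Nutlin-3a comparison and the peptide comparison without Nutlin-3a share their control libraries, and the Nutlin-3a libraries with water are the treated side of the first and the control side of the peptide comparison under Nutlin-3a. In bulk RNA, fewer cells and less RNA per cell cannot be told apart. Of the 161 members, 150 passed the filter of a mean of 0.5 RPM and 11 did not. SNORD112, SNORD107, SNORD64, SNORD108, SNORD109A, SNORD109B, SNORD123 and SNORD32B among those had a mean under 0.01 RPM in each experiment.

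Nutlin-3a against DMSO, in cells electroporated with water, called 0 of 150 members up or down, and 0% of all rows in each direction (limma). At an unadjusted p under 0.05 limma had 1 member of 94 rows and limma-voom had 1 of 110. With the replicate block limma had 10 of 150 members there (1 above 0 and 9 below) and 1160 of 15958 rows. The median log2 change was -0.10 over the members, with 40 of 150 above 0, and -0.02 over all tested rows, with 45.0% above 0. It was 0.02 in experiment 1 and -0.17 in experiment 2, and the latter was 0.02 without replicate 1 of DMSO with water. Without the block, the member at an unadjusted p under 0.05 was SNORD110, from the NOP56 gene, at -0.73 ± 0.33 (SE), adjusted p 1 by limma. Its 2 values in Nutlin-3a with water of experiment 1 were 9.72 and 2.27 RPM, the latter in the library that stood apart, against 10.1 and 11.8 RPM in DMSO with water. Below 0 by size followed SNORD91B (-0.72), SNORD11 (-0.51), SNORD47 (-0.45) and SNORD45A (-0.38). Above 0 were SNORD18B (2.05), SNORD75 (0.61), SNORD104 (0.31), SNORD76 (0.30) and SNORD62B (0.27), of which SNORD18B and SNORD75 are rows with separated levels.

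In ribosomal protein genes most members' values had opposite signs in the experiments. Of 36 members, 30 were above 0 in experiment 1 (median 0.24), and 35 were below 0 in experiment 2 (median -0.30). Of all tested rows, 45.2% were above 0 in experiment 1 and 51.5% in experiment 2. The 16 hosts of these members had medians of 0.17 and -0.29. The library that stood apart was 1 of the 2 libraries of Nutlin-3a with water in experiment 1. Its TMM scaling factor was 0.685, against 0.914 for replicate 1, and its part in the experiment 1 signs was not tested. In experiment 2 the median over all tested members moved from -0.17 to 0.02 without replicate 1 of DMSO with water. No member was called for a difference between the experiments in this comparison, nor was any other row (limma, 0%; 1 member of 158 rows at an unadjusted p under 0.05, limma-voom 0 of 126). With the replicate block 0 members were called for that difference, where 0.0188% of all rows were called as lower in experiment 2. With the replicate block, limma called SNORD18A as higher in experiment 1, though not without the filter on low rows (0.68 ± 0.14, SE, adjusted p 0.0399; 0.326% of all rows were called higher and 0.0501% lower). Without the library that stood apart, experiment 1 has 1 library of Nutlin-3a with water, so calls there are not given. For Nutlin-3a in experiment 2 that fit then called 8 members as lower and 0 as higher. Of all rows, 1.49% were called lower and 1.45% higher. With that library 0 were called in experiment 2.

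The peptide under Nutlin-3a called 0 of 150 members, and 0% of all rows in each direction (limma). At an unadjusted p under 0.05 limma had 0 members of 80 rows, and limma-voom had 2 members. With the replicate block limma had 22 of 150 members there, all above 0, and 1315 of 15958 rows, with 771 above 0 and 544 below. The median log2 change of the members was 0.14, with 124 of 150 above 0, beside 0.04 and 60.6% above 0 over all tested rows. Over the 64 hosts of the tested members it was 0.14, with 51 above 0. By experiment the members' median was 0.32 in experiment 1 and 0.04 in experiment 2. The experiment 2 value was -0.13 without replicate 1 of Nutlin-3a with peptide and 0.13 without replicate 1 of Nutlin-3a with water. The 5 members highest in value were SNORD110 (0.50), SNORD14A (0.49), SNORD118 (0.47), SNORD87 (0.46) and SNORD13 (0.44). The 5 lowest were SNORD11 (-0.39), SNORD89 (-0.21), SNORD124 (-0.20), SNORD105 (-0.20) and SNORD121B (-0.17).

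For experiment 1, taken from the fit of all 20 libraries with the replicate block, 24 of 150 members were called higher with peptide under Nutlin-3a and 0 lower, where 3.68% of all rows were called higher and 2.95% lower. Their log2 changes ran from 0.54 to 1.12. They included SNORD118 (1.055 ± 0.19, SE; adjusted p 0.00944 by limma), SNORD14A (1.03), SNORD10 (0.65), SNORD45A, SNORD45B and SNORD45C from RABGGTB, 5 guides from GAS5 (SNORD44, SNORD47, SNORD77, SNORD78 and SNORD81) and SNORD22 and SNORD25 from SNHG1. In 21 of the 24 the lowest library of experiment 1 was the one that stood apart, which is on the control side of this comparison. Without it the control side is 1 library, so only effect sizes are given. The members' median log2 change was then 0.21, with SNORD10 at 0.63 and SNORD24 at 0.95. By replicate pair, SNORD24 changed by 0.93 in pair 1 and by 0.17 in pair 2. With that library kept, the blocked fit without the filter on low rows called 2 of 160. On the 8 libraries of experiment 1 alone, without the block, limma called 0 of 150. In experiment 2 the 24 members had log2 changes from -0.28 to 0.24, with 15 above 0 and none called. The difference between the experiments was called for 0 members with the block, where 0.232% of all rows were called as higher in experiment 2 and 0.094% as lower. The processing RNAs had a median of 0.86 in experiment 1 (12 of 13 above 0) and 0.03 in experiment 2 (7 of 13). Of all tested rows, 60.4% and 51.3% were above 0. The 13 include the 5 U3 symbols, near-identical copies that are not independent, and the 0.86 is within their range of 0.86 to 0.995. The 5 U3 rows had all values above 0 in the first experiment and below 0 in the second. The library that stood apart is 1 of the 2 control libraries in experiment 1. SNORD3A in experiment 1 stood at 0.99 ± 0.65 (SE), not called by limma (adjusted p 1), and its values under Nutlin-3a overlapped (1199 and 3527 RPM with water, 2615 and 6582 RPM with peptide).

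The peptide without Nutlin-3a, over both experiments, called 0 of 150 members and 0% of all rows in each direction (limma). At an unadjusted p under 0.05 limma had 1 member, SNORD24, of 14 rows, and limma-voom 0 of 17. With the replicate block limma had 2 members there, both below 0, of 179 rows. The median log2 change was 0.05 over the members, with 103 of 150 above 0, beside 0.03 and 62.9% over all tested rows. By experiment it was 0.07 and 0.04, and the experiment 2 value was -0.085 (56 of 150 above 0) without replicate 3 of DMSO with water and 0.155 without replicate 1. Apart from SNORD24, the lowest values were those of SNORD4A (-1.06 ± 1.61), SNORD11 (-0.997 ± 0.55), SNORD15A (-0.26 ± 0.37) and SNORD5 (-0.25). The highest were SNORD18B (0.88 ± 1.51), SNORD75 (0.68 ± 0.94), SNORD76 (0.63 ± 0.53), SNORD91B (0.45 ± 0.73) and SNORD71 (0.30 ± 0.24). Every one of these values was within 2 SE of 0.

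**Figure D5:**
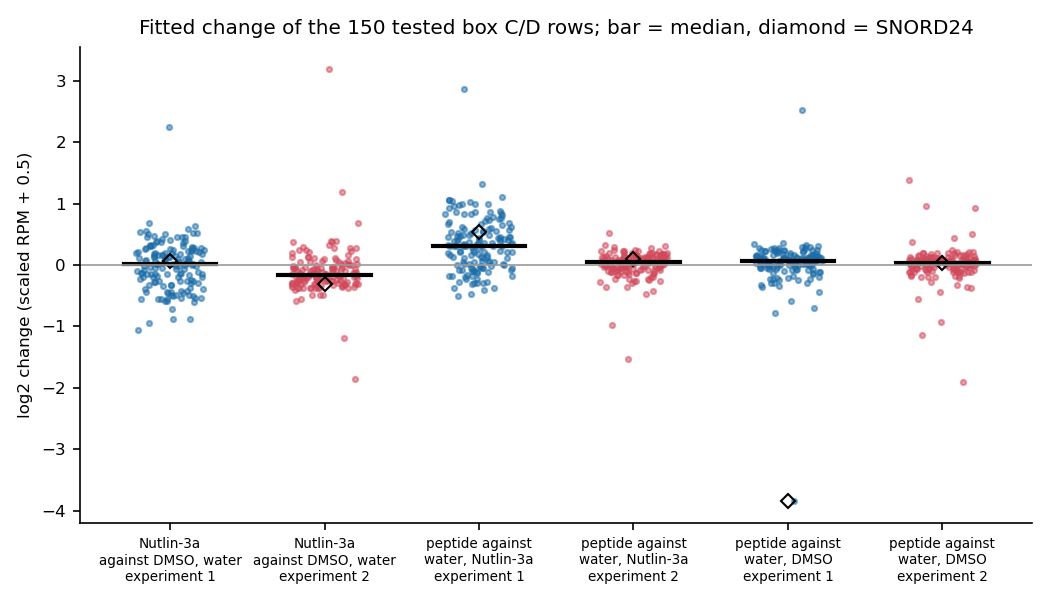
Log2 change of the 150 tested box C/D rows (1 point per row, y axis, on scaled RPM with 0.5 added) for each comparison in each experiment (x axis), with the median as a bar and SNORD24 as a diamond. SNORD24 stands at -3.84 for the peptide without Nutlin-3a in experiment 1 and at 0.04 in experiment 2, and the medians lie between -0.17 and 0.32.

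The genes for the snoRNA particle and its assembly were measured in the same libraries, from a list of 15: the core proteins FBL, NOP56, NOP58 and SNU13, the assembly factors NUFIP1, ZNHIT3, ZNHIT6, RUVBL1, RUVBL2, PIH1D1 and RPAP3, and the factors TGS1, PHAX, NOLC1 and NAF1 that modify or carry the particle or its relatives. None of the 15 was called in any of the 3 comparisons, over both experiments or within either (limma), and none had an unadjusted p under 0.05. For Nutlin-3a against DMSO the list's median log2 change was -0.12 (1 of 15 above 0), with values from -0.25 for RPAP3 to 0.06 for PIH1D1. Within each experiment 5 of 15 were above 0. For the peptide under Nutlin-3a the median was 0.12 (13 of 15 above 0, and 13 and 8 in experiments 1 and 2), with values up to 0.20 for ZNHIT3. For the peptide without Nutlin-3a it was 0.05 (12 of 15 above 0, and 13 and 11 by experiment). Of all tested rows, 45.0%, 60.6% and 62.9% were above 0 in these 3 comparisons over both experiments. NOP58, host of SNORD11, had 64.1 RPM in the library that stood apart and 123 to 170 RPM in the other 7 of experiment 1.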

How the data were processed

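The deposited tables (1 per experiment, 26485 rows) hold values that the authors scaled in another unit: reads scaled to 1000000 over all rows, divided by (stop minus start/1000), a score that does not correct for length. Per the submitters' processing notes, HISAT2, bedtools and limma were used with hg38 (no versions given). Counting mode and strand handling are not given in the sources used here. Multiplying by the divisor restored RPM and whole reads in 100% of values (tolerance 0.001). The deposited unit is normalized, so no count model was the main test. As an alternative, limma-voom was fitted to the restored whole reads. Overlapping or near-identical rows may have shared or split reads.

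Rows with a mean of at least 0.5 RPM were fitted with limma 3.58.1 (R 4.3.3, trend) on log2(TMM-scaled RPM + 0.5), with terms for condition and experiment, or 8 group means for values within an experiment. Benjamini-Hochberg adjustment ran over all rows fitted, and calls are at an adjusted p under 0.05. A fold change understates the change of low rows. The experiment term was fitted on all rows with a read. A host is the shortest longer row (at least 300 bases) that holds a member on the same strand. Exons and sequences are from GENCODE release 29. In simulated data for the peptide comparison without Nutlin-3a (50 rows per fold), 86% of rows lowered 2-fold in both experiments were recovered among 15950 rows fitted. Of those lowered 2-fold in experiment 1 only, 18% were recovered among 15947. Of 4-fold changes, 100% were recovered in either. The simulated libraries held no effect shared by replicate number, so these shares do not carry over to the real libraries. There, CDKN1A had means of 34.1 RPM in DMSO with water and 116 RPM in Nutlin-3a with water of experiment 1. The fit of 8 group means called 0 rows in that comparison.

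Named members are SNORD24 and its host cluster, the 10 highest per kilobase, the 5 highest and lowest changes per comparison, a panel of processing RNAs and guides, and the extremes of the host ratio (some are not reported here); rows with separated levels, SNORD44 and SNORD81 were named after their values were seen. Members and lists were chosen with earlier results of these data known. Libraries with the same replicate number deviated together from the means of their groups: the correlations ran from 0.286 to 0.585 over 12 pairs of experiment 1, and from 0.877 to 0.940 over 18 pairs of experiment 2. So the replicate block took the numbers as pairs, which no label states. The main fits had no replicate term and leave this pairing in the spread. With 2 replicates the deviations mirror each other. Other scaling, filters, pseudocounts of 0.1 and 5, limma-voom, the block and each library left out were tried, and per-experiment blocked fits were added after seeing the data. Python 3.11.15 and matplotlib 3.10.9 drew the plots.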

Additional observations from a re-analysis of the deposited data

Results flagged for a closer look

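The level of SNORD24 in DMSO with peptide, relative to DMSO with water, differed between the experiments. Its log2 change was 3.88 higher in experiment 2 than in experiment 1 by limma's interaction term (0.04 against -3.84). The 2 libraries of DMSO with peptide in experiment 1 had 1.75 and 1.33 RPM and SNORD91B was high in the same libraries, at 4.05 and 4.50 RPM.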

How the results depend on the processing

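Of the summary values recomputed under the alternatives, 375 were counted as the same, 14 as moved and 1 as weaker. A median counted as the same if it stayed within the SD of the medians of the replicate pairs, even where its sign changed. With each library left out in turn, the median log2 change of the members ran from -0.14 to 0.00 for Nutlin-3a, from 0.06 to 0.24 for the peptide under Nutlin-3a and from -0.02 to 0.09 for the peptide without it. SNORD24 in experiment 1 stayed between -3.999 and -3.699, and its difference between experiments between 3.69 and 4.08, called in 20 of 20 cases each. Under the other settings the experiment 1 value ran from -4.19 to -2.435, the latter with a pseudocount of 5, and was called in 15 of 15. With that pseudocount the difference was 2.47, with 0 members called.

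With the replicate block as pairing and both experiments together, 0 members were called in each comparison. In experiment 1 the block called 1 member for Nutlin-3a and 24 for the peptide under Nutlin-3a. Without the library that stood apart, Nutlin-3a with water has 1 library there, so calls are not given for these comparisons. For the peptide without Nutlin-3a 1 member was called, with or without the block or that library. These fits within experiments with the block were added after seeing the data. The median in experiment 1 was 0.32 for the peptide under Nutlin-3a, and 0.058 for Nutlin-3a with the block and without that library. The host ratio was 1.86 and 1.97 with 100 bases added to the spans and 5.65 and 5.19 with members' reads taken from the host.

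Values of single members that changed sign were not called. For Nutlin-3a in experiment 1 these were SNORD24 (0.061), SNORD76 (-0.28) and SNORD75 (-0.27), in experiment 2 SNORD45A (0.071), and with the block and without the library that stood apart SNORD91B (0.33), SNORD62B (-0.14) and SNORD18B (-3.41). For the peptide under Nutlin-3a they were SNORD11 (0.49) and SNORD89 (0.0099) in experiment 1, SNORD105 (0.0025) and SNORD110 (-0.042) in experiment 2, and SNORD11 (0.18), SNORD124 (0.077), SNORD105 (0.022) and SNORD121B (0.0043) with the block and without that library. For the peptide without Nutlin-3a they were SNORD4A (0.22), SNORD15A (0.012) and SNORD71 (-0.017) in experiment 1, which were 0.22, 0.010 and -0.019 with the block and without that library, and SNORD24 (0.039) and SNORD91B (-0.93) in experiment 2. With 1 library left out, the ranges that crossed 0 were, for Nutlin-3a, SNORD24 (-0.45 to 0.074), SNORD76 (-0.011 to 0.62) and SNORD75 (-0.13 to 1.10), for the peptide under Nutlin-3a SNORD11 (-0.62 to 0.11) and SNORD89 (-0.38 to 0.0017), and for the peptide without it SNORD5 (-0.51 to 0.030). The cause was not tested.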
